A study of Homo sapiens with 6 samples.

Results

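The genes described here are 40 genes of mitosis and of the G2/M step, the passage from a cell with copied chromosomes into division, picked by symbol from the deposited gene tables. They fill 41 of the 38648 listings in those tables, because SPC25 is listed both on chromosome 2 and on a scaffold outside the chromosomes, and all 41 passed the filter on low counts that left 15381 listings for testing. They were measured by RNA sequencing in HPC, a line of human podocytes (genotype WT in the labels), the kidney epithelial cells whose foot processes cover the glomerular capillaries. High glucose, used to mimic diabetes in culture, was common to both groups, which differed in their lentivirus: a negative control (NC, 3 libraries) or one that overexpresses PRDM16 (3 libraries), with 24 h in the titles. PRDM16 is a zinc finger transcription factor studied above all in brown fat. The labels and protocols name neither the glucose concentration nor the lentiviral promoter, the way the line was immortalised, its passage or its density at harvest. Separate cultures are not stated for the 3 libraries of a group, so that p-values reflect the spread between samples and this spread may be technical.

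A cell enters mitosis when the kinase CDK1, bound to its partners cyclin A and cyclin B, becomes active. The chromosomes condense, kinetochores tie them to the spindle, and a checkpoint holds the cell until every chromosome is attached. The ubiquitin ligase APC/C then destroys cyclin B and securin, the sister chromatids part, and the cell divides. Messages of this programme accumulate in G2 and M and are low in resting cells, so that their level in a culture follows the share of cells in cycle. Mature podocytes in the kidney rarely divide, whereas podocyte lines are kept in culture by proliferation. In bulk RNA, fewer dividing cells and less of a message in each dividing cell cannot be told apart.

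The libraries held 20147135 to 41280350 gene counts. PRDM16 had 0 counts in each NC library and 11, 18 and 24 counts in the PRDM16 libraries (edgeR adjusted p = 7.7e-04), at least 13.9-fold above a floor of 3 counts over the NC group. These are few counts, so the level that PRDM16 reached is low in these data and known only roughly. Of 12 podocyte markers, 5 passed the filter on low counts. CD2AP, PODXL and SYNPO were present at 86.9 ± 25.0, 53.7 ± 5.75 and 7.54 ± 0.355 TPM (transcripts per 1000000, a level per gene length; SD, n = 6 libraries), while the defining markers NPHS1 and WT1 had at most 4 counts in any library. Of markers of other cell types, 5 of 9 for parietal and tubule cells passed the filter (summed level 518 to 709 TPM per library, mostly CLDN1 and PAX8), 4 of 6 for mesangium and fibroblasts (234 to 296 TPM, mostly COL1A1 and ACTA2), 4 of 6 for leukocytes (241 to 291 TPM, mostly CD68) and 2 of 6 for endothelium (0.929 to 1.26 TPM). Among the defining markers, KDR and CD3E had 0 counts in every library. NC library 2 stood apart from the rest: it held the highest value of the 6 libraries in 33.4% of all tested listings and the lowest in 32.8%. Values without it are given for each role below.

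Promoters of mitotic genes are known for a short element near the transcript start, the cell cycle homology region, at which the DREAM complex keeps the gene silent in resting cells and the MuvB, B-MYB and FOXM1 proteins turn it on in G2, and for CCAAT boxes bound by NF-Y. RefSeq promoter windows (GRCh38.p14, 250 bases before to 50 after the start) were matched for 33 of the 40 genes, in 40 windows. AURKA, FOXM1, BUB3, TTK, UBE2C, BIRC5 and TPX2 were not matched. The stretches below show the 120 bases before the start for 7 genes whose values are discussed further on, 5′ to 3′ on the gene's own strand. Capitals mark TTTGAA or TTCGAA (the cell cycle homology region) and CCAAT, each on either strand, so that TTCAAA and ATTGG are their reverse forms.
CCNB1: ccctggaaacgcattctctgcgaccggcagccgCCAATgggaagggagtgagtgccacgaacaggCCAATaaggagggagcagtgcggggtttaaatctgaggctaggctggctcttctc
CCNB2: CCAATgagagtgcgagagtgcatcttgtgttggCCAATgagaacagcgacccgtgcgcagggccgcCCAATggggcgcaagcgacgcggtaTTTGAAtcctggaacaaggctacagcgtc
CDC20: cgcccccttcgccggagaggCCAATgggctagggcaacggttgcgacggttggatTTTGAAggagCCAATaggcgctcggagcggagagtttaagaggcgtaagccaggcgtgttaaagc
BUB1B: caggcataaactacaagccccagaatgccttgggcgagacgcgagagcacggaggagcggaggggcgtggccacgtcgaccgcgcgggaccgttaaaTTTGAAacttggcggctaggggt
DLGAP5: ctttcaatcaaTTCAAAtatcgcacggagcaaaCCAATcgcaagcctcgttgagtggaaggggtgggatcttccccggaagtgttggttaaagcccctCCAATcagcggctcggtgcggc
TOP2A: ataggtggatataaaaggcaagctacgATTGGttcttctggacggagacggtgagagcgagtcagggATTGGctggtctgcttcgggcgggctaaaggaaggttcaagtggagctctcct
MKI67: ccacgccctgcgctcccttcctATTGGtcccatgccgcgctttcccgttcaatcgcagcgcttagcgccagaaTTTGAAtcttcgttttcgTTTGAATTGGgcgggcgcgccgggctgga
These stretches lie at chr5:69167030-69167149 (plus strand), chr15:59105026-59105145 (plus strand), chr1:43358861-43358980 (plus strand), chr15:40160949-40161068 (plus strand), chr14:55191586-55191705 (minus strand), chr17:40417897-40418016 (minus strand) and chr10:128126424-128126543 (minus strand). CCNB2 shows the arrangement most often drawn for this class of promoter, with 3 CCAAT boxes 33 bases apart and TTTGAA 29 bases before the start. BUB1B has TTTGAA and no CCAAT box in the stretch, while CCNB1 and TOP2A each have 2 CCAAT boxes (reversed in TOP2A) and no TTTGAA or TTCGAA in these 120 bases. In TOP2A matches to these letters lie farther out, at 194 and 151 bases before the start. Other spellings of the element were not searched, so a stretch without capitals for it may still hold one. In MKI67 the second TTTGAA runs into a reversed CCAAT box, and the letters they share are counted for both.

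TTTGAA or TTCGAA was found in 28 of the 40 windows of these genes (70.0%), against 16.4% of all 35116 windows of the table. CCAAT was found in 31 (77.5%, against 34.6% of all windows), at least 2 CCAAT boxes in 20 (50%, against 10.8%), and both elements in 24 (60.0%, against 6.38%). An E2F site (TTTCCCGC, TTTCGCGC, TTTGCCGC or TTTGGCGC on either strand) is better known from genes of DNA replication. It was found in 4 windows (10.0%, against 3.31%). Some genes have more than 1 window. Counted by gene, TTTGAA or TTCGAA was found in 25 of 33 (75.8%, against 19.5% of all genes). By gene, CCAAT was found in 27 (81.8%, against 39.7%) and an E2F site in 3 (9.09%, against 3.99%). In 20 genes a match to TTTGAA or TTCGAA lay before the start. The match nearest to a start, over all windows of a gene, was at a median of 28.5 bases, and in 15 genes within 50 bases. Matches farther out in the same genes do not enter this median. A match is a description of letters and not of a bound site.

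**Figure D1:**
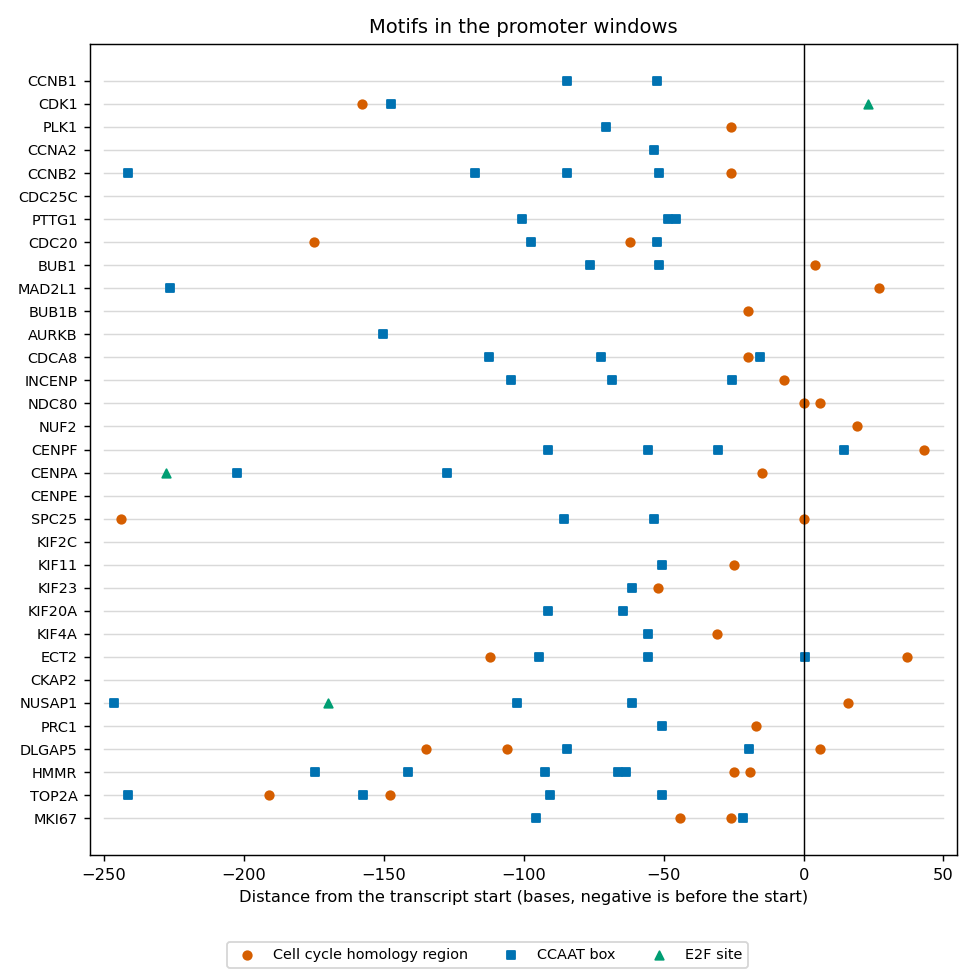
Positions of the 3 motifs in 1 promoter window of each matched gene, as distance in bases from the transcript start, with genes in rows. The cell cycle homology regions lie mostly within 50 bases of the start, with the CCAAT boxes farther out.

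The mitotic genes were well expressed in all 6 libraries. Per length, 35 of the 41 listings stood above the median tested listing (12.0 TPM), 38 stood above 10 TPM, and outside SPC25 no library had fewer than 104 counts for any of them. The highest level was that of PTTG1, the securin that guards sister chromatids, at 253 ± 18.1 TPM (SD, n = 6). UBE2C, the ubiquitin carrier of the APC/C, followed at 162 ± 17.6 TPM, then the kinase AURKB at 143 (between 119 and 167 in single libraries) and the APC/C activator CDC20 at 130.4 ± 15.5. The ranges of these 3 genes over the libraries overlap, but within each of the 6 libraries UBE2C stood above AURKB and AURKB above CDC20. CCNB1, encoding cyclin B1, stood at 103 ± 4.96 TPM, CDK1 at 75.0 ± 13.6 and the DNA topoisomerase TOP2A at 71.3 ± 22.3. MKI67, which codes for the proliferation antigen Ki-67 that coats mitotic chromosomes, stood at 27.9 ± 8.58 TPM, above 67.6% of the tested listings. At the low end were the kinetochore motor CENPE (7.08 ± 2.94 TPM) and SPC25 (1.25 ± 0.548 TPM at its chromosomal place).

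**Figure D2:**
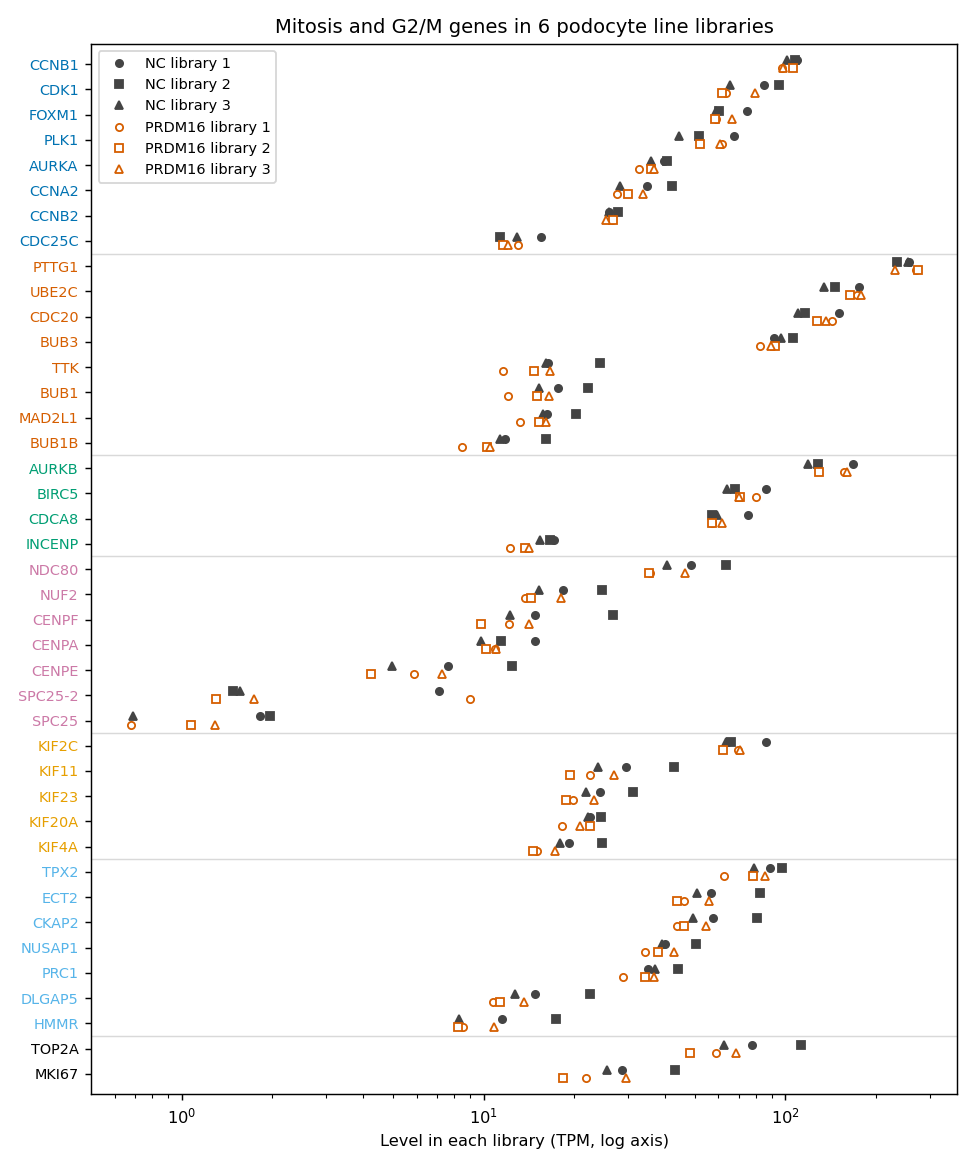
Level of each listing in each library in TPM on a log axis, with the 3 NC libraries as filled and the 3 PRDM16 libraries as open symbols, grouped by role. Levels run from about SPC25 at 1.25 TPM to PTTG1 at 253 TPM, and NC library 2 lies to the right of the others for most kinetochore, motor and spindle genes.

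The comparison asked whether these messages differed between the PRDM16 and the NC lentivirus. No member passed: 0 of 41 listings had an adjusted p under 0.05 in edgeR, where 10 of all 15381 listings (0.065%) passed, and the lowest adjusted p among the members was 0.297. DESeq2 (0.267% of all listings) and limma-voom (0.026%) called 0 as well. At an unadjusted p under 0.05 there were 3 members in edgeR (1 higher, 2 lower; 7.32%), 4 in DESeq2 and 1 in limma-voom, against 16.0% of all listings in edgeR (9.23% higher, 6.76% lower). The groups did not overlap in 4 members (UBE2C higher, and BUB1B, INCENP and KIF4A lower), against 21.0% of all listings (12.2% higher, 8.77% lower). The median log2 fold change was -0.088 over the members and -0.024 over all listings tested, and 27 of the 41 (65.9%) had the lower mean with PRDM16, against 53.1% of all. A p that misses the threshold does not show equal levels, but the intervals bound the difference: the 95% interval of the fold change lay within 2-fold in either direction for 37 members and within 1.5-fold for 32. The 4 with wider intervals were CENPE, CENPF and both listings of SPC25.

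**Figure D3:**
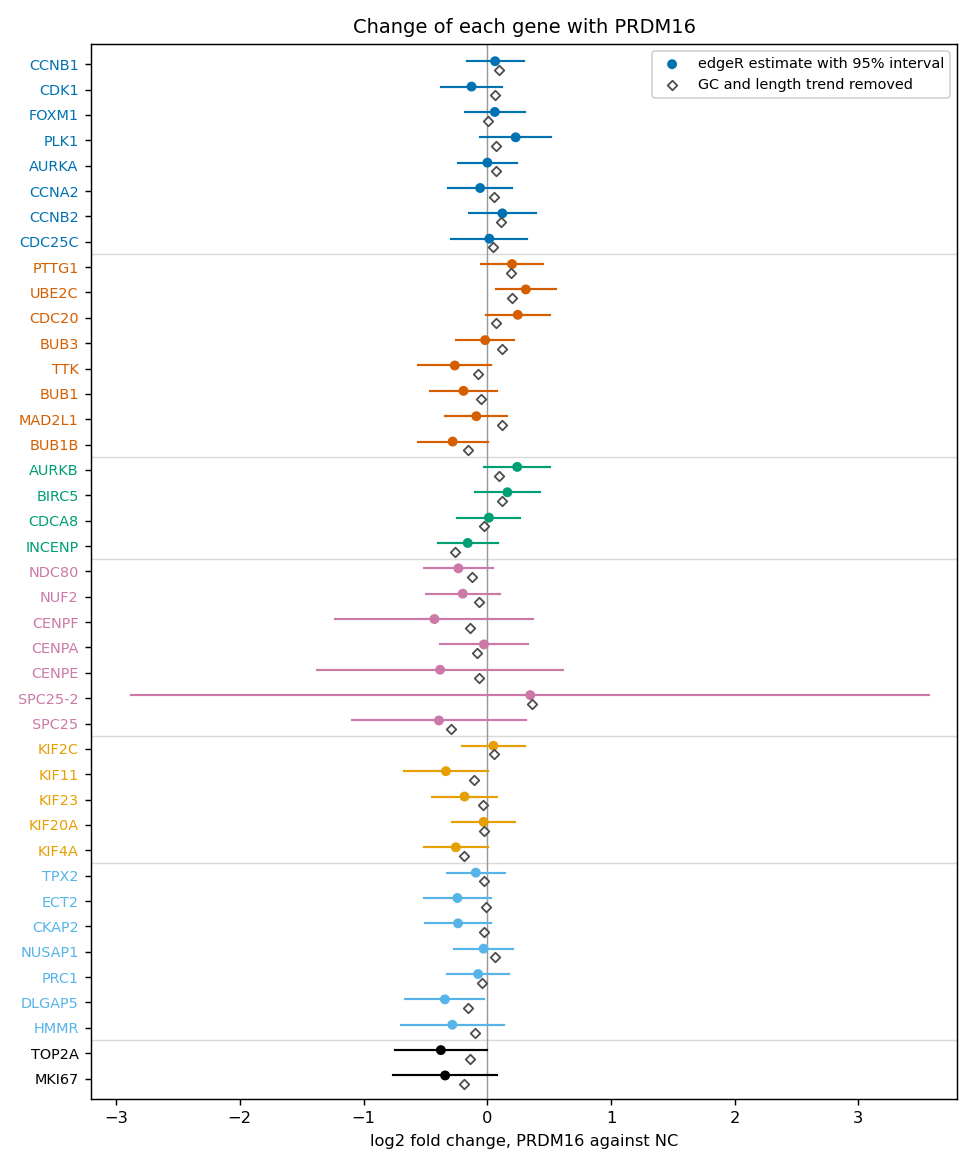
log2 fold change of each listing, PRDM16 against NC, with its 95% interval (circles and bars) and the estimate after the trend with GC content and length is removed (diamonds), grouped by role. The intervals of 38 of the 41 listings include 0, the exceptions being UBE2C, DLGAP5 and TOP2A, and the diamonds lie closer together than the circles.

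Among the 8 genes of mitotic entry the log2 fold changes lay between -0.13 and 0.23 with a median of 0.039. CDK1, the kinase that drives entry, stood at 102, 107 and 81.6 CPM (counts per 1000000, scaled by TMM factors) in NC libraries 1, 2 and 3 and at 87.8, 81.8 and 96.4 in the PRDM16 libraries (-0.13 ± 0.12 SE, edgeR adjusted p = 0.552). The PRDM16 values all fall inside the range of the NC values, and without NC library 2 the log2 fold change was -0.04. For its partner cyclin B1, CCNB1 gave 77.4, 72.1 and 75.1 CPM with NC and 79.8, 83.7 and 71.3 with PRDM16 (0.063 ± 0.11), and the groups overlap. The transcription factor FOXM1, which turns on many of the other members, stood at 97.5, 74.2 and 80.2 CPM with NC and 88.6, 84.9 and 89.1 with PRDM16 (0.061 ± 0.12), again with the PRDM16 values inside the NC range. PLK1, the kinase that helps to switch on CDK1 and later builds the spindle, stood at 51.1, 37.0 and 35.2 CPM with NC and 53.7, 44.0 and 47.0 with PRDM16, the largest difference of this role (0.23 ± 0.14, edgeR adjusted p = 0.369). NC library 1 overlaps the PRDM16 libraries here, and the value was 0.16 without NC library 2, 0.41 without NC library 1 and 0.074 with the GC and length trend removed. The kinase AURKA, which matures the spindle poles, had nearly the same mean in both groups (0.0012 ± 0.12), with a 95% interval of -0.24 to 0.24. Cyclin A2 (CCNA2, -0.058), cyclin B2 (CCNB2, 0.12) and the CDK1-activating phosphatase CDC25C (0.017) also overlapped between the groups. Without NC library 2, FOXM1 (-0.015), CCNA2 (0.056) and CDC25C (-0.11) had the opposite sign. The exons of CCNA2, FOXM1 and CDC25C share 9.24%, 12.1% and 6.89% of their bases with a gene on the other strand, EXOSC9, ITFG2 and FAM53C. FAM53C had 2637 to 5899 counts per library, against 254 to 465 for CDC25C. The strand setting of the counting is not given.

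The genes of the spindle checkpoint and of mitotic exit had values on both sides of 0, and none passed. UBE2C, CDC20 and PTTG1, which act in exit, had the higher mean with PRDM16. UBE2C had the smallest p of all members, with 75.2, 59.3 and 60.2 CPM with NC and 85.5, 78.5 and 77.8 with PRDM16 (0.31 ± 0.12, unadjusted p = 0.0141, edgeR adjusted p = 0.297). No NC library reached the PRDM16 libraries, the nearest being NC library 1, and in TPM NC library 1 (175) overlapped the PRDM16 libraries (173, 164 and 177). For CDC20 the values were 86.8, 63.4 and 66.5 CPM with NC and 94.8, 81.7 and 80.7 with PRDM16 (0.25 ± 0.13, edgeR adjusted p = 0.321), and NC library 1 lay above 2 of the PRDM16 libraries. The CDC20 value was 0.39 without NC library 1 and 0.17 without NC library 2. PTTG1 had a log2 fold change of 0.20 ± 0.12. The 5 checkpoint members had the lower mean as fitted, but BUB3 (0.12) and MAD2L1 (0.12) were above 0 with the trend removed, and BUB3 (0.0086) also without NC library 2. BUB1B, encoding the checkpoint protein BubR1 that restrains CDC20, stood at 15.2, 19.5 and 15.2 CPM with NC and 12.6, 14.7 and 13.8 with PRDM16 (-0.28 ± 0.14, edgeR adjusted p = 0.314). The groups did not overlap, and without NC library 2 the value was -0.14. TTK, the kinase MPS1 that starts checkpoint signalling, stood at 21.1, 29.6 and 21.6 CPM with NC and 17.2, 21.1 and 21.9 with PRDM16 (-0.26 ± 0.14). Its NC library 2 lay above all others, and without it the value was -0.078. The kinase BUB1 (-0.19), MAD2L1 (-0.088) and BUB3 (-0.017), further parts of the checkpoint, overlapped between the groups. With NC library 2 left out, BUB1 was at -0.068 and MAD2L1 at -0.0021.

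The chromosomal passenger complex corrects faulty attachments and later sets the place of the cleavage furrow. Its kinase AURKB stood at 104, 75.0 and 77.1 CPM with NC and 112, 89.7 and 101 with PRDM16 (0.24 ± 0.13, edgeR adjusted p = 0.330), and its survivin subunit BIRC5 at 84.6, 63.1 and 65.7 and 91.0, 77.3 and 70.8 (0.16 ± 0.13). In both, NC library 1 lay among the PRDM16 libraries. Without it the values were 0.40 for AURKB and 0.30 for BIRC5, and without NC library 2 they were 0.16 and 0.088. The scaffold subunit INCENP was on the other side, with 38.8, 35.7 and 36.6 CPM with NC and 32.0, 34.6 and 32.9 with PRDM16 (-0.16 ± 0.12, edgeR adjusted p = 0.451). Its groups did not overlap. The borealin subunit CDCA8 had a log2 fold change of 0.014 ± 0.12 (-0.086 without NC library 2), so the subunits of this complex had values on both sides of 0.

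The kinetochore genes carried the largest differences and the largest spread. CENPF, a large protein of the outer kinetochore, stood at 54.1, 92.5 and 46.5 CPM with NC and 51.2, 40.1 and 52.7 with PRDM16 (-0.43 ± 0.31, edgeR adjusted p = 0.483). NC library 2 was 2.31-fold above the lowest library, the other libraries overlapped, and without NC library 2 the value was -0.063. For the motor CENPE, which slides chromosomes to the spindle equator, the values were 23.0, 35.6 and 15.7 CPM with NC and 20.5, 14.3 and 22.4 with PRDM16 (-0.38 ± 0.37, and -0.017 without NC library 2). Both genes show the same order of the NC libraries, with library 2 highest and library 3 lowest. The microtubule-binding subunits NDC80 (-0.23) and NUF2 (-0.20) also had their highest value in NC library 2, while the centromere histone CENPA (-0.027) had it in NC library 1. Without NC library 2 the values were -0.081 for NDC80, -0.028 for NUF2 and -0.093 for CENPA.

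SPC25, a subunit of the complex of NDC80 and NUF2, was spread over its 2 listings. Its chromosomal listing had 25, 32 and 9 counts with NC and 9, 20 and 33 with PRDM16, and the scaffold listing 77, 19 and 16 with NC and 94, 19 and 35 with PRDM16. The share of SPC25 counts on the scaffold was highest in PRDM16 library 1, at 91.3% (exact binomial 95% interval 84.1 to 95.9, counting error only), and next in NC library 1, at 75.5% (66.0 to 83.5). The other 4 libraries had 37.3% to 64.0%, and the interval of NC library 3 (42.5 to 82.0, from 25 counts) overlaps that of NC library 1. The sum of both listings was 4.43, 1.77 and 1.2 CPM with NC and 5.36, 1.40 and 1.62 with PRDM16 (log2 fold change 0.12 ± 0.83 SE in the edgeR fit on summed listings). The handling of reads that fit both places is not stated, and 20.6% of the exon bases of the chromosomal listing are shared with NOSTRIN on the other strand.

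The mitotic motors and the spindle genes had mostly the lower mean with PRDM16, and none passed. KIF11, the motor that pushes the spindle poles apart, stood at 52.0, 71.1 and 43.9 CPM with NC and 45.8, 38.0 and 48.8 with PRDM16 (-0.33 ± 0.16, edgeR adjusted p = 0.317, and -0.11 without NC library 2). KIF4A, which shapes chromosomes and the central spindle, stood at 29.5, 35.8 and 28.8 and 26.7, 25.0 and 27.2 CPM (-0.25 ± 0.13, and -0.14 without NC library 2). Its groups did not overlap, whereas those of KIF11 did. KIF20A, a motor of cytokinesis, hardly differed, at 24.4, 25.2 and 25.1 CPM with NC and 22.7, 27.3 and 23.1 with PRDM16 (-0.029 ± 0.12). The cytokinesis motor KIF23 (-0.18) and the microtubule depolymerase KIF2C (0.05) overlapped between the groups as well, and were at -0.059 and -0.035 without NC library 2. DLGAP5, which stabilises spindle fibres near the chromosomes, had the second smallest p among the members, with 17.0, 24.5 and 15.2 CPM with NC and 14.2, 14.5 and 16.0 with PRDM16 (-0.34 ± 0.15, unadjusted p = 0.0370, edgeR adjusted p = 0.303). NC library 2 was again the highest, PRDM16 library 3 lay above NC library 3, and without NC library 2 the value was -0.10. TPX2, the activator of AURKA on the spindle, stood at 109.5, 113 and 101 CPM with NC and 89.0, 108 and 107 with PRDM16 (-0.093 ± 0.11). The cytokinesis regulator ECT2 (-0.24), the hyaluronan receptor and spindle protein HMMR (-0.28), CKAP2 (-0.24), the microtubule bundlers PRC1 (-0.074) and NUSAP1 (-0.03) had the lower mean with PRDM16 and overlapping groups. With NC library 2 left out, HMMR (0.0046) and NUSAP1 (0.065) were above 0, ECT2 was at -0.046, CKAP2 at -0.05, PRC1 at -0.004 and TPX2 at -0.049.

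TOP2A and MKI67, the pair most often read as markers of proliferation, had among the lowest fold changes. TOP2A, which untangles sister chromatids, stood at 157, 217 and 133 CPM with NC and 139, 110.0 and 143 with PRDM16 (-0.37 ± 0.17, unadjusted p = 0.0486, edgeR adjusted p = 0.312). MKI67 stood at 133, 189 and 124 CPM with NC and 117, 94.5 and 141 with PRDM16 (-0.34 ± 0.19, edgeR adjusted p = 0.354). In both genes NC library 2 was the highest, PRDM16 library 2 the lowest, and PRDM16 libraries 1 and 3 lay above NC library 3 in TOP2A, as did library 3 in MKI67. Without NC library 2 the values were -0.15 and -0.13. Leaving out NC library 3 instead gave the only calls among the members in any setting reported here. CENPE (-0.61, edgeR adjusted p = 0.0105), CENPF (-0.61, 0.00964) and TOP2A (-0.51, 0.0393) were then lower with PRDM16, 3 of 41 where 1.09% of all listings passed. With that library left out and the trend described next removed, their edgeR adjusted p were 0.641, 0.601 and 0.599.

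The fold changes of the members ran along the base composition of their transcripts. Across the 41 listings, which share libraries and processing, the log2 fold change had a Spearman's rho of 0.66 with GC content and -0.64 with listed gene length, against 0.64 and -0.42 across all 13892 tested listings with a GC value. Without NC library 2 the members' rho was 0.27 with GC content and -0.43 with length, and that of all listings with GC content 0.45. Of the 21 members with a GC content under 45%, 19 had the lower mean with PRDM16 (median -0.24), and of the 20 at or above 45%, 8 did (median 0.015). Over all tested listings the medians on the same sides were -0.19 and 0.082. Without NC library 2 the members' medians were -0.050 and -0.0087. CENPE, CENPF, TOP2A, DLGAP5 and KIF11 are on the side poor in GC, and UBE2C, CDC20, AURKB and PLK1 on the side rich in GC. Among the 8 of the richer side with values below 0 were INCENP, the member richest in GC (59.9%), and MKI67 (48.3%), the longest. With the trend of each library with GC content and length removed, the members had a median of -0.026, the SD of their fold changes went from 0.21 to 0.13, and rho with GC content was 0.27. Then 0 passed in edgeR (0.0325% of all listings did), and UBE2C (0.20) and INCENP (-0.26) had an unadjusted p under 0.05, 2 of 41, where 6.81% of all listings did. TOP2A went to -0.14, MKI67 to -0.19, CENPF to -0.14 and CENPE to -0.066, CDC20 to 0.068 and AURKB to 0.091, while CDK1 went from -0.13 to 0.066. Whether this trend arose in the cells or in the libraries was not tested.

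**Figure D4:**
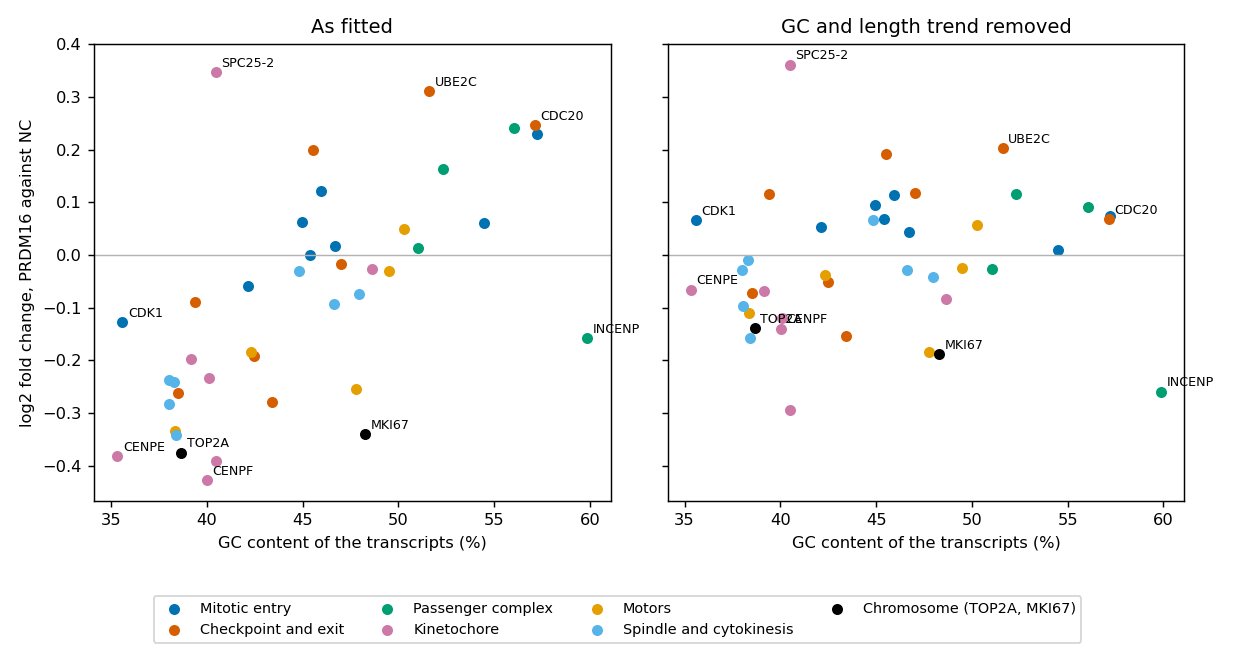
log2 fold change of each listing (PRDM16 against NC) against the GC content of its transcripts in percent, as fitted (left) and with the library trends in GC content and length removed (right), coloured by role. On the left the points climb from CENPE, CENPF and TOP2A to UBE2C and CDC20, and on the right the climb is weaker, with rho at 0.66 and 0.27.

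The members did not follow a single order of the libraries. NC library 2 held the highest value of the 6 for 23 of the 41 members (56.1%, against 33.4% of all listings), and PRDM16 library 3 and NC library 3 for none. It also held the lowest value for 10. The median deviation from the mean of the 6 libraries over the members was 0.059, 0.18 and -0.10 on the log2 scale with NC and -0.082, -0.033 and -0.0057 with PRDM16, so the PRDM16 libraries lie between NC library 3 and NC library 1. In NC library 2 the spindle and cytokinesis genes deviated by 0.43 and the kinetochore genes by 0.38, while the passenger complex deviated by -0.24 and the entry genes by -0.076. The summed level of the members was 2239, 2273 and 1882 TPM in the NC libraries and 1948, 1906 and 2069.7 TPM in the PRDM16 libraries, overlapping between the groups. The median ratio of the highest to the lowest library was 1.44 for the members, the same as over all tested listings (1.44).

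**Figure D5:**
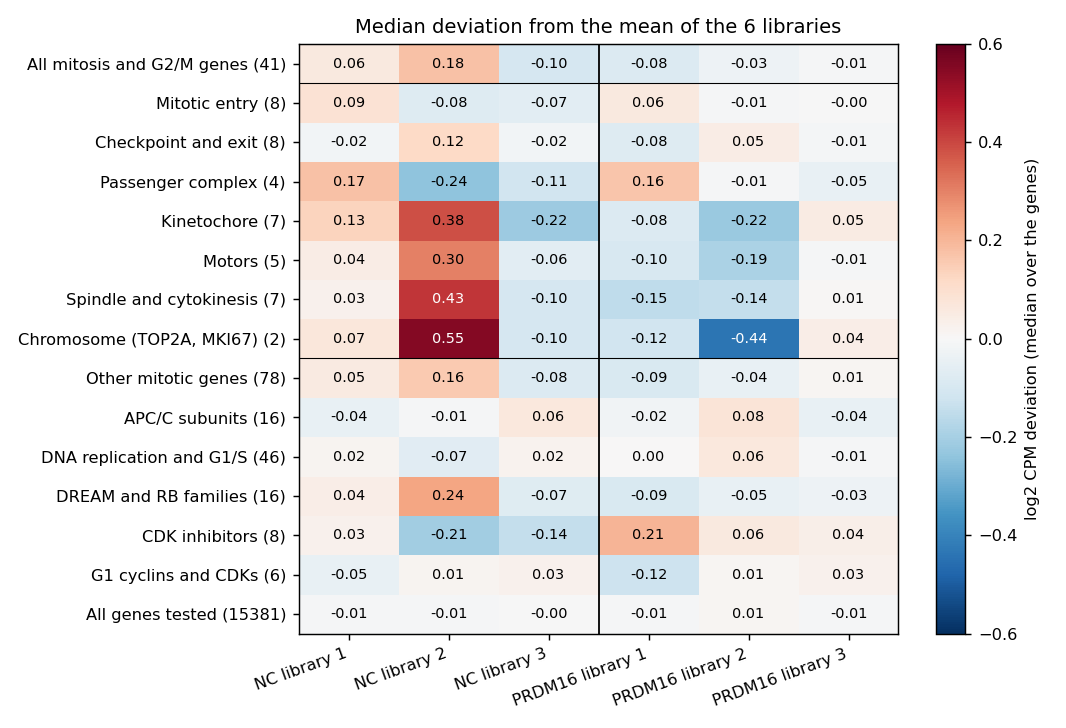
Median deviation in log2 CPM of each library (columns) from the mean of the 6 libraries, over the listings of each role and of other cell cycle lists (rows, number tested in parentheses). The largest deviation is that of TOP2A and MKI67 in NC library 2 (0.55), and the row of all mitosis and G2/M genes runs from -0.10 in NC library 3 to 0.18 in NC library 2.

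Other genes of the cell cycle were counted in the same fit, from lists chosen by function. Of 76 further mitotic genes, such as condensins, centromere proteins and cytokinesis factors, 78 listings entered the fit; 0 passed with any of the 3 tools and 8 had an unadjusted p under 0.05 in edgeR (3 higher, 5 lower; 10.3%, against 16.0% of all listings), and 1 with the trend removed. Their median of -0.14 became -0.0041 with the trend removed. The smallest p belonged to PKMYT1, a kinase that holds CDK1 inactive (0.39 ± 0.12, edgeR adjusted p = 0.253, 0.073 with the trend removed). It was followed by the centromere protein CENPM (0.34), the cleavage furrow protein ANLN (-0.31) and the cohesion protector SGO2 (-0.47). Of the 16 APC/C genes 0 passed in any of the 3 tools. An unadjusted p under 0.05 in edgeR was found for 4 (3 higher, 1 lower), 25% against 16.0% of all listings, and for 1 with the trend removed. The activator FZR1 was at 0.32 ± 0.11 and the ubiquitin carrier UBE2S at 0.34 ± 0.15. Genes of DNA replication and the G1/S step had a median of 0.019 over 46 listings, with 0 passing in any tool. In edgeR 9 had an unadjusted p under 0.05 (7 higher, 2 lower), 19.6% against 16.0% of all listings. With the trend removed 5 did, where 6.81% of all listings did. The helicase subunit MCM2 (218 ± 15.1 TPM; 0.25 ± 0.12) and the sliding clamp PCNA (781 ± 84.6 TPM; -0.025 ± 0.12) stood above most mitotic genes per length. CDKN1A, the CDK inhibitor p21, was far more abundant than any mitotic gene, at 3816 ± 243 TPM (SD, n = 6), above 99.8% of the tested listings. In CPM it had a log2 fold change of 0.27 ± 0.13 (edgeR adjusted p = 0.319), with the PRDM16 libraries above the NC libraries, as in 12.2% of all listings. Among 8 CDK inhibitor genes 0 passed in any tool and 1, CDKN2A, had an unadjusted p under 0.05 in edgeR (0.36 ± 0.12). This is 12.5%, against 16.0% of all listings, and 1 of the 8 had such a p with the trend removed. The median of the 8 was 0.20 as fitted and 0.043 with the trend removed.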

How the data were processed

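RNA sequencing was done on 6 libraries of the podocyte line HPC (oligo(dT) selection and random priming, per the labels' protocols). Groups and replicate numbers came from the titles. For each library the authors deposited raw read counts, TPM and FPKM per gene, per the file headers, with exon coordinates in hg38 (per the submitters' processing notes). Aligner, counting tool and strand setting: not given in the sources used here. Deposited FPKM values can be rebuilt from counts, gene lengths and totals, and the deposited TPM values sum to 1000000, as checked. The lines of 7 genes, none of them a member, were broken and were put back together. Off the chromosomes lie 4252 listings with 0.757% of the counts.

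Counts were tested in R 4.3.3 with edgeR 4.0.16, by its robust quasi-likelihood test (TMM factors, minimum count 10, minimum total 15, common biological coefficient of variation 0.146), with Benjamini-Hochberg adjustment over all 15381 listings at 0.05. DESeq2 1.42.0 and limma 3.58.1 were alternatives. Each standard error is the fold change over the root of its F statistic, and 95% intervals use the degrees of freedom of that test. Deviations are in log2 CPM with a prior count of 2. GC content is the median over GENCODE 29 transcripts and was found for 90.3% of the tested listings. To remove the trend, splines of GC content and log2 length (natural, with 5 degrees of freedom per term) were fitted to each library's deviations and used as offsets. The pipeline was tested on simulated data. No library pair agreed within sampling noise (chi-square per degree of freedom 9.10 to 61.0).

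The members and lists were chosen with earlier results of these data known. Values in each library are given for 16 lead members of the roles and the 6 with the smallest p, for CCND1, and for INCENP, SPC25 and MYBL2, chosen after their values were seen. Other members, and up to 4 genes with the smallest p and set markers of other lists, are given by their fold change or level. Some marker genes are not reported here.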

Additional observations from a re-analysis of the deposited data

How the results depend on the processing

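The number of members that passed was 0 with every alternative reported here except 1. It ranged from 0 to 3 when single libraries were left out, the 3 appearing without NC replicate 3. The median log2 fold change of the members (-0.088) stayed within 1 SD between libraries (0.113) of its value. It ran from -0.132 to -0.0399 with single libraries left out. That SD is larger than the median itself, so even a change of sign can lie within it. Over all listings 10 passed, against 107 with no count filter, 41 with DESeq2, 18 with the listings of a gene summed, 5 with the GC and length trend removed, 4 with limma-voom, and 7 to 173 with single libraries left out (173 without NC replicate 3, 59 without PRDM16 replicate 2 and 20 without PRDM16 replicate 1). The cause was not tested.

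With the replicate number as a block, 0 members passed, the median was -0.086, and 10 listings passed. With the block and the trend removed 4 did, and PRDM16 did not pass (adjusted p = 0.185). Same-numbered libraries gave no sign of pairing over all genes (correlation of deviations 0.0945, -0.104 and -0.131). Over the members alone the same pairs gave 0.80, 0.19 and -0.25. The highest value over the members, 0.87, was that of NC library 2 with PRDM16 library 3. Of 323 recomputed values of 19 named members, 307 kept direction and call. That count is a weak check, because no member passed in the main fit, the settings reuse the same libraries, and size is not counted. Without NC replicate 2, for example, CENPE went from -0.38 to -0.017 and CENPF from -0.43 to -0.063, and both counted as kept. CDK1 turned to 0.066 with the trend removed, and to 0.071 with the block as well. FOXM1 ranged from -0.015 to 0.176 and KIF20A from -0.116 to 0.018 with single libraries left out.

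In 2 settings added after seeing the data, the trend was removed and a library left out. The same fit was run with each other library left out and is not reported here. Without NC replicate 2, PRDM16 did not pass (adjusted p = 0.0732), and CDK1 was at 0.014, FOXM1 at -0.023, CENPF at 0.036, CENPE at 0.083 and KIF20A at 0.004. Without NC replicate 3, CDK1 was at 0.041, FOXM1 at -0.027 and PLK1 at -0.029. The median of the members was 0.0035 without NC replicate 2 and -0.0467 without NC replicate 3. Depth was lowest for SPC25, with 9 to 33 counts per library at its chromosomal place.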

Other observations

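The regulators that act upstream of the mitotic genes were also measured. Of 16 genes of the DREAM, MuvB and RB families and related regulators, all of them tested, 0 passed with any of the 3 tools, and 7 had an unadjusted p under 0.05 in edgeR (2 higher, 5 lower; 43.8%, against 16.0% of all listings). The count was 3 in limma-voom and 1 with the GC and length trend removed, where 6.81% of all listings had such a p. Their median log2 fold change was -0.13, and 0.017 with the trend removed. MYBL2, encoding the B-MYB protein that acts with MuvB on mitotic promoters, stood at 443 ± 44.8 TPM (SD, n = 6), with 446, 349.6 and 388 CPM with NC and 514, 436 and 473 with PRDM16 (0.27 ± 0.12 SE, edgeR adjusted p = 0.304). The retinoblastoma gene RB1 had a log2 fold change of -0.28 ± 0.12. Of the 6 G1 cyclin and CDK genes 0 passed in any tool and 3 had an unadjusted p under 0.05 in edgeR (against 16.0% of all listings), 1 in limma-voom and 0 with the trend removed. The 3 were CCND3 (0.30 ± 0.11) and CDK4 (0.28 ± 0.13) on the higher side and CDK6 (-0.34 ± 0.16, and -0.13 without NC library 2) on the lower. CCND1, encoding cyclin D1, stood at 171, 219.9 and 233 CPM with NC and 151, 190.0 and 184 with PRDM16 (-0.25 ± 0.13).

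Among the 33 members with a promoter window, the 25 that hold TTTGAA or TTCGAA had log2 fold changes from -0.43 to 0.25 (median -0.19), and the 8 that do not had values from -0.38 to 0.24 (median 0.010). The ranges of both overlap. These are values as fitted, with all libraries. With the GC and length trend removed, the members at the ends of the first range were at -0.14 (CENPF) and 0.068 (CDC20). Those at the ends of the second were at -0.066 (CENPE) and 0.091 (AURKB). Whether the medians still differ with the trend removed was not tested. Members counted as lacking the element may hold another spelling of it, and members with no matched window are left out.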
